A study of Homo sapiens with 12 samples.

Results

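The unfolded protein response and the integrated stress response were followed through 10 genes, HSPA5, DDIT3, ATF4, XBP1, HERPUD1, CHAC1, ASNS, TRIB3, SESN2 and DNAJB9. They were chosen by name for their place in these responses, with earlier results of these data known, and all 10 were found among the 23346 genes listed with an RPKM, a read count scaled to gene length and to library size. RNA came from SW1990 and CFPAC-1, established human pancreatic adenocarcinoma cell lines, sorted by flow cytometry with GCTM-5, an antibody to a cell surface glycoprotein. Each line gave 3 samples of GCTM-5 positive and 3 of GCTM-5 negative cells, 12 in all, and the gates kept strongly stained and unstained cells only. No engineered genotype or drug separated positive from negative cells within a line. The 2 lines are separate cell lines, and their genotypes were not compared. Per the labels all cells were grown in Iscove's medium with L-glutamine (2 mM) and fetal bovine serum (10%), dissociated and incubated with antibody in the cold before sorting, so negative cells passed through the same handling as positive cells. The study's methods name RPMI medium with GlutaMAX, insulin, transferrin and selenium instead, so the medium, which supplies the amino acids that some of these genes answer to, is uncertain. The paper names sorts in triplicate, without saying whether each had its own culture. Nothing in the labels tells separate cultures from repeated sorts of 1 culture, and the spread between samples may therefore be technical. With 1 line of each kind, a difference between lines cannot be told apart from one between their cultures.

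Misfolded protein in the endoplasmic reticulum (ER) is sensed by IRE1 (the gene ERN1), PERK (EIF2AK3) and ATF6. IRE1 splices XBP1 mRNA into the template of an active transcription factor, ATF6 is cut to release another, and PERK phosphorylates the initiation factor eIF2, as do other kinases that sense amino acid shortage, haem loss or double-stranded RNA. Phosphorylated eIF2 lowers protein synthesis as a whole while ATF4 mRNA is translated more, and this shared branch is the integrated stress response. ATF4 activity is thus set largely at translation and XBP1 activity at splicing, neither of which a gene-level RPKM shows. The other genes are outputs of these branches: HSPA5, HERPUD1 and DNAJB9 act at the ER, and DDIT3, CHAC1, ASNS, TRIB3 and SESN2 lie downstream of ATF4.

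In CFPAC-1, positive cells had more HSPA5 and TRIB3 mRNA than negative cells and less HERPUD1 and DNAJB9 mRNA. In SW1990 only DNAJB9 passed the test, and it was lower in positive cells. A gene was called when the adjusted p of limma, fitted on log2(RPKM + 0.1) across 16236 genes with Benjamini-Hochberg adjustment, was under 0.05. In CFPAC-1 this called 2 of the 10 genes higher, against 22.3% of all genes fitted, and 2 lower, against 14.2%. In SW1990 it called 0 of 10 higher (11.3% of all genes) and 1 lower (16.9%). At an unadjusted p under 0.05 limma gave 0 higher and 3 lower in SW1990, and voom on reads recovered from the RPKM called 0 higher and 2 lower. The study's thresholds, over 2-fold and p under 0.01, were applied to the limma p of each line. The study itself used another test, TCC, and counted genes changed in both lines. By these thresholds 0 of 10 were called in either direction in either line. Of all genes, 4.59% were higher and 7.48% lower in SW1990 and 5.65% higher and 4.13% lower in CFPAC-1. The median log2 change of the 10 genes was -0.18 in SW1990 and 0.02 in CFPAC-1, and that of all genes was -0.04 and 0.05. For 10 genes these counts are close to the shares in the whole table, and the number of calls did not set the group apart from other genes.

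**Figure D1:**
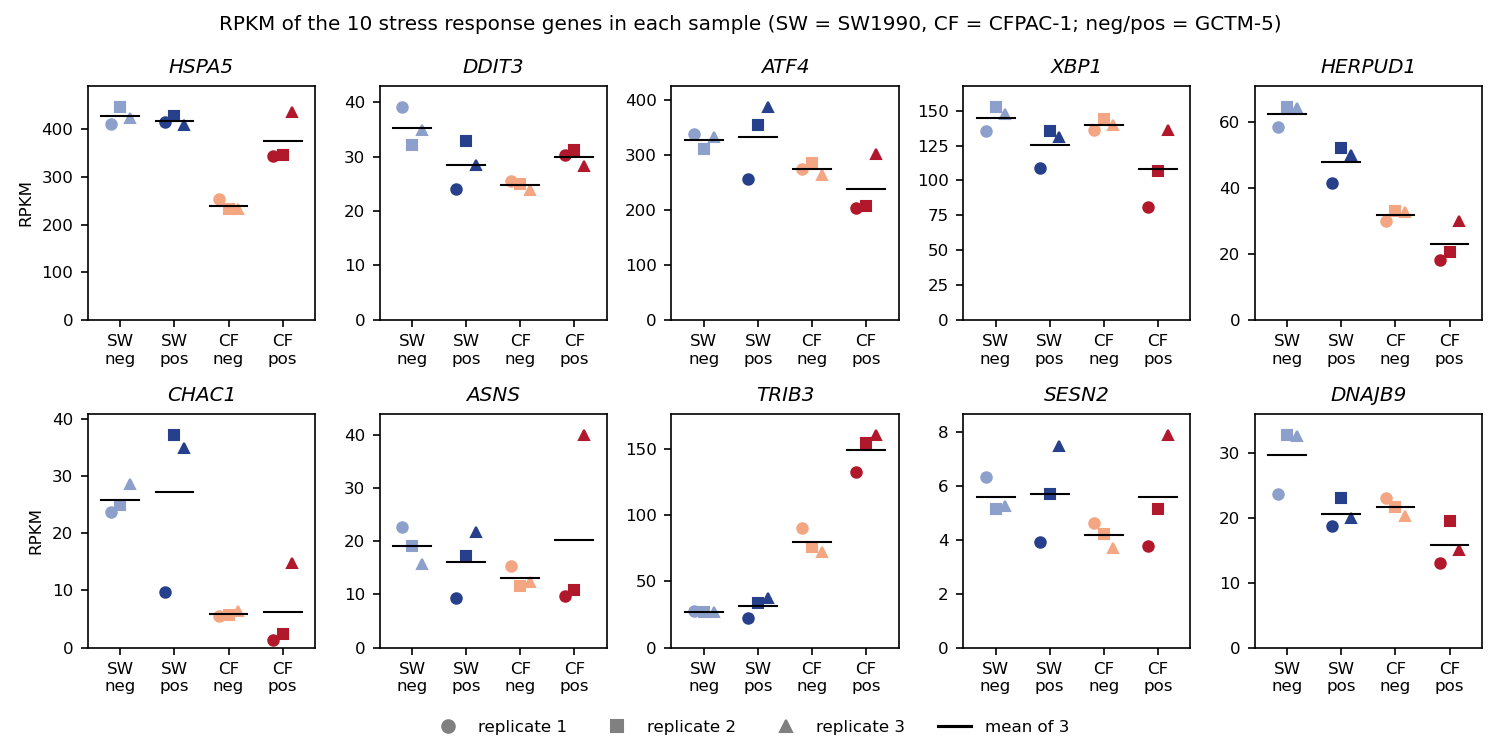
RPKM (vertical axis, linear, from 0) of each of the 10 genes in the 12 samples, by line and GCTM-5 group, with 1 point per sample and a bar at the mean of 3. HSPA5 and TRIB3 are higher in all 3 positive CFPAC-1 samples than in the negative ones, and the points of CHAC1 and ASNS in positive CFPAC-1 cells spread from 1.27 to 14.7 and from 9.67 to 39.9.

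HSPA5 (chr9:127997132-128003661 in GRCh37, as for all positions of genes here) encodes BiP, the main Hsp70 chaperone of the ER lumen, which also holds the sensors inactive. Its RPKM was 254, 232 and 233 in negative and 344, 347 and 436 in positive CFPAC-1 cells. The ranges do not overlap, and the log2 change was 0.64 (SE 0.10, fold 1.56, limma adjusted p = 0.000661). Negative SW1990 cells gave 412, 447 and 423 and positive ones 416, 427 and 408, a log2 change of -0.03 (SE 0.10, limma adjusted p = 0.86). The change was thus smaller in SW1990 than in CFPAC-1, by 0.67 on the log2 scale (SE 0.14, limma adjusted p of the difference 0.00494). The low group was negative CFPAC-1: between negative cells SW1990 was higher by 0.84 (SE 0.10, limma adjusted p = 1.44e-05), and between positive cells by 0.16 (SE 0.10, limma adjusted p = 0.19). At 17274 reads or more in each sample, counting error is small beside the spread between samples.

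DNAJB9 (chr7:108210311-108215294) encodes ERdj4, an ER co-chaperone of BiP and a textbook target of spliced XBP1. It was lower in positive cells of both lines. Negative SW1990 cells had 23.7, 32.8 and 32.7 RPKM and positive ones 18.7, 23.1 and 20.1; the groups do not overlap, though negative replicate 1 and positive replicate 2 nearly meet. The log2 change was -0.51 (SE 0.16, limma adjusted p = 0.0314). Negative CFPAC-1 cells had 23.0, 21.7 and 20.3 RPKM and positive ones 13.1, 19.5 and 15.0, with no overlap and a log2 change of -0.47 (SE 0.16, limma adjusted p = 0.0395). Both calls were close to the threshold. The SW1990 call was lost without negative replicate 2 or 3 or positive replicate 1 or 3, with adjusted p up to 0.119, and the CFPAC-1 call without each sample except positive replicate 2, with adjusted p up to 0.151. With each line fitted alone neither passed (adjusted p = 0.0651 in SW1990 and 0.073 in CFPAC-1), nor without the filter on low values (0.0746 and 0.088).

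HERPUD1 (chr16:56966054-56978776) encodes a membrane protein of the ER that helps bring misfolded proteins to degradation. It stood at 58.4, 64.4 and 64.2 RPKM in negative and 41.5, 52.0 and 50.0 in positive SW1990 cells. All positive samples were lower, but the log2 change of -0.39 (SE 0.15) gave a limma adjusted p of 0.0859. In CFPAC-1 the values were 30.0, 32.8 and 32.6 in negative cells and 18.2, 20.4 and 29.8 in positive cells, again without overlap, and the change of -0.51 (SE 0.15) passed at a limma adjusted p of 0.0231. That call was lost, at adjusted p up to 0.0949, without negative replicate 2 or 3 or positive replicate 1 or 2. It was largest without positive replicate 3, at -0.72 and an adjusted p of 0.00057. With CFPAC-1 fitted alone HERPUD1 was not called (adjusted p = 0.0934), nor without the filter (0.059), while with SW1990 fitted alone its change there was (0.0403). Between the lines HERPUD1 differed by 0.97 in negative cells (SE 0.15, limma adjusted p = 0.000134) and 1.09 in positive cells (SE 0.15, limma adjusted p = 6.74e-05), SW1990 being higher.

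XBP1 (chr22:29190543-29196585), the factor that IRE1 activates by splicing, did not pass the test in either line. Its RPKM was 135, 152 and 148 in negative and 109, 136 and 131 in positive SW1990 cells (log2 change -0.22, SE 0.16, limma adjusted p = 0.344). In CFPAC-1 it was 136, 144 and 139 in negative cells, and 80.8, 107 and 136 in positive cells (log2 change -0.41, SE 0.16, limma adjusted p = 0.0593). The third positive CFPAC-1 sample alone reached the level of the negative cells, and without it the change was -0.59 (limma adjusted p = 0.00467).

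Of the 4 ER genes above, HSPA5, XBP1 and HERPUD1 hold an ER stress element before a start site, and DNAJB9 had no match to either form. The genes were chosen by name as members of these responses, so a match in them was likely in advance and gives no independent support. The ER stress response element, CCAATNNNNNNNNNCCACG, binds ATF6 together with the CCAAT factor NF-Y. Searched on both strands in the 250 bases before the start, it was present in HSPA5 and XBP1, and in 0.074% of 35116 promoters of the RefSeq table for build GRCh38.p14. A second form, ATTGGNCCACG, was present in HERPUD1 and in 0.0513% of promoters. All 10 genes were in that table, with 16 start sites in all. The stretches are shown, with the elements in capitals, since HSPA5 was called higher and HERPUD1, with a related element, lower in CFPAC-1.
HSPA5, chr9:125241381-125241454, minus strand, element 66 to 48 bases before the start: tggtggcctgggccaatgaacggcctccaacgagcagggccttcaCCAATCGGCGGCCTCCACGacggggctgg
XBP1, chr22:28800593-28800666, minus strand, element 52 to 34 bases before the start: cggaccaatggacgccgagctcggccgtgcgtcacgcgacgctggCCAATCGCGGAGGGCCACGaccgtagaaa
HERPUD1, chr16:56931921-56932045, plus strand, second form 117 to 107 bases before the start: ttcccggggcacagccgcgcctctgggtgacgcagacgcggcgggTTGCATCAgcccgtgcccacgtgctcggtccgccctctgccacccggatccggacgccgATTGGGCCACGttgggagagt
The first run of capitals in HERPUD1, 176 to 169 bases before the start, is a C/EBP-ATF response element (TGATGNAA) read on the other strand. HSPA5, with the first form, was higher in positive CFPAC-1 cells, XBP1, with the same form, did not pass the test, and HERPUD1, with the second, was lower. A match of letters is a description, and binding was not measured.

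TRIB3 (chr20:343479-378203) encodes a pseudokinase that is induced by ATF4 and CHOP. It had 90.0, 75.9 and 72.4 RPKM in negative CFPAC-1 cells and 133, 155 and 161 in positive ones. The groups lie well apart, and the log2 change of 0.91 (SE 0.16, fold 1.88, limma adjusted p = 0.00109) was the largest called among the 10 genes. In SW1990 it was 27.3, 26.8 and 27.0 in negative cells and 22.6, 33.4 and 37.1 in positive cells, and the change of 0.17 (SE 0.16) did not pass (limma adjusted p = 0.486). Positive replicate 1 was the sample below the negative group, and without it the SW1990 change was 0.38 (limma adjusted p = 0.0345). The difference between the lines was -0.75 (SE 0.22, limma adjusted p = 0.028), and it missed the threshold, at up to 0.071, without any of 6 samples (negative replicates 1 and 2 of SW1990, negative replicates 2 and 3 and positive replicates 2 and 3 of CFPAC-1).

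**Figure D2:**
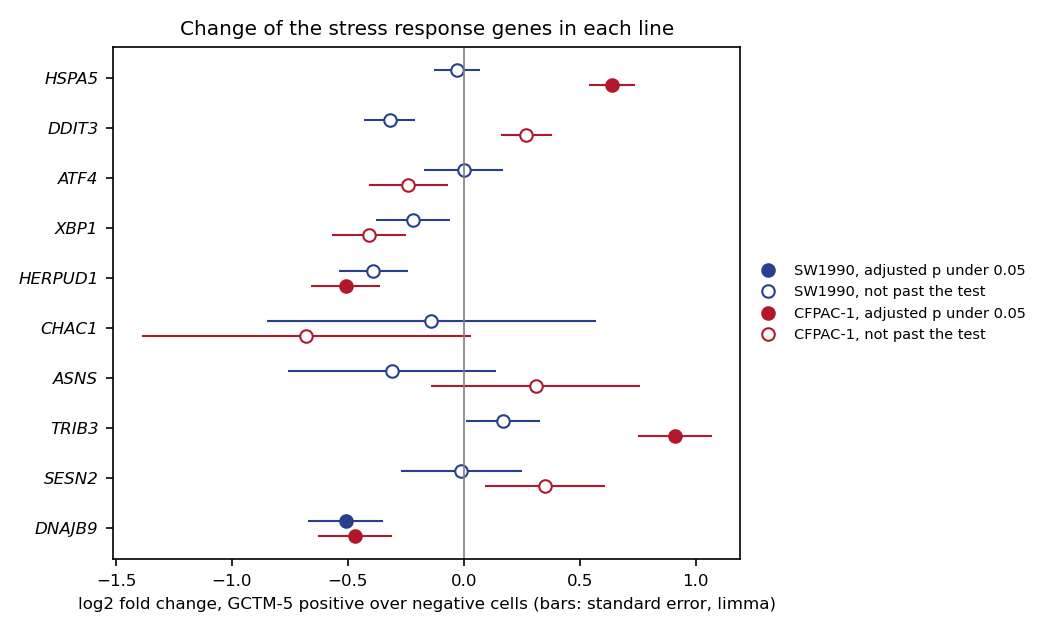
Log2 fold change of GCTM-5 positive over negative cells (horizontal axis) for each gene in SW1990 (blue) and CFPAC-1 (red), with the limma standard error as bars and filled points where the adjusted p is under 0.05. HSPA5 and TRIB3 lie to the right of 0 in CFPAC-1, at 0.64 and 0.91, and DNAJB9 lies near -0.5 in both lines.

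DDIT3 encodes CHOP, the transcription factor linked with cell death in prolonged ER stress. Negative SW1990 cells had 39.1, 32.1 and 34.9 RPKM and positive cells 24.1, 33.0 and 28.4 (log2 change -0.32, SE 0.11, limma adjusted p = 0.0542), with 1 positive sample above the lowest negative one. Negative CFPAC-1 cells had 25.6, 24.9 and 23.9 RPKM and positive cells 30.4, 31.2 and 28.3 (log2 change 0.27, SE 0.11, limma adjusted p = 0.0788), all 3 above the negative samples. Neither change passed, but the difference between them did, at -0.59 (SE 0.16, limma adjusted p = 0.0173). DDIT3 lies on the minus strand at chr12:57910371-57915520 in GRCh37, and MARS1 and MBD6, on the other strand, overlap 982 and 1028 of its bases. The use of strand in counting is not given in the sources used here, so reads in those bases could belong to either gene. MARS, as the table calls MARS1, was itself higher in positive CFPAC-1 cells, by 0.69 (limma adjusted p = 0.0148). That call was lost with CFPAC-1 fitted alone (limma adjusted p = 0.0778) and without its negative replicate 3 (0.0547). The part of MARS in the DDIT3 value was not tested.

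In all, the test of the difference called 0 of the 10 genes higher in SW1990 than in CFPAC-1 (9.16% of all genes). It called 3 lower, HSPA5, DDIT3 and TRIB3 (17.8%). At an unadjusted limma p under 0.05 the counts were also 0 and 3, and with voom 0 and 3. Among genes not called, the difference was above 0 for ATF4 (0.24), XBP1 (0.19), HERPUD1 (0.12) and CHAC1 (0.54). It was below 0 for ASNS (-0.62), SESN2 (-0.37) and DNAJB9 (-0.05). The median of this difference was -0.21 over the 10 genes and -0.15 over all genes. With each sample centred on its own median, the median of all genes moved to 0.00, and HSPA5 alone kept an adjusted p under 0.05, at 0.0328; DDIT3 went to 0.056 and TRIB3 to 0.071. The calls of all genes turned with this scaling, from 34% to 50% higher in the difference and from 61.1% to 47.8% higher in CFPAC-1.

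ATF4 (chr22:39915700-39918688), the transcription factor of the integrated stress response, was among the most abundant mRNAs in every group. It had 337, 311 and 332 RPKM in negative and 256, 353 and 386 in positive SW1990 cells, a log2 change of 0.00 (SE 0.17, limma adjusted p = 1). In CFPAC-1 it had 274, 285 and 263 RPKM in negative and 202, 207 and 300 in positive cells (log2 change -0.24, SE 0.17, limma adjusted p = 0.295). The means hide a wide spread in the positive groups, with a coefficient of variation (SD over mean) of 20.4% in SW1990 and 23.3% in CFPAC-1, against 4.32% and 3.97% in the negative groups.

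CHAC1 (chr15:41245160-41248710) encodes an enzyme that degrades glutathione and is among the most responsive targets of ATF4. Negative cells were even, at 23.7, 24.9 and 28.6 RPKM in SW1990 and 5.47, 5.66 and 6.43 in CFPAC-1. Positive SW1990 cells had 9.65, 37.1 and 34.8 RPKM and positive CFPAC-1 cells 1.27, 2.39 and 14.7. In each line the positive samples thus lay on both sides of the negative ones, and the highest was 3.85 times the lowest in SW1990 and 11.6 times in CFPAC-1, on 52, 70 and 229 reads. No difference could be called, with a log2 change of -0.14 in SW1990 (SE 0.71, limma adjusted p = 0.921) and -0.68 in CFPAC-1 (SE 0.71, limma adjusted p = 0.486). Without positive CFPAC-1 replicate 3, CHAC1 was lower in positive cells (log2 change -1.68, limma adjusted p = 0.0198).

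ASNS (chr7:97480989-97501854) encodes asparagine synthetase, the classic gene of the amino acid response. Its RPKM was 22.6, 19.0 and 15.7 in negative and 9.35, 17.2 and 21.7 in positive SW1990 cells (log2 change -0.31, SE 0.45, limma adjusted p = 0.666). In CFPAC-1 it was 15.4, 11.6 and 12.3 in negative and 9.67, 10.8 and 39.9 in positive cells (log2 change 0.31, SE 0.45, limma adjusted p = 0.633). Again positive CFPAC-1 replicate 3 stood alone, and without it the direction turned, at -0.34 (limma adjusted p = 0.39). SESN2 (chr1:28586029-28609002), which encodes a leucine-binding restraint on mTORC1, was the least abundant of the 10. It had 6.36, 5.15 and 5.27 RPKM in negative and 3.93, 5.69 and 7.49 in positive SW1990 cells, and 4.63, 4.24 and 3.71 in negative and 3.79, 5.15 and 7.90 in positive CFPAC-1 cells. Its log2 changes were -0.01 and 0.35 (SE 0.26, limma adjusted p = 0.991 and 0.316).

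The C/EBP-ATF response element, TGATGNAA on either strand, was present before the start of CHAC1, ASNS and HERPUD1, and in 3.14% of all promoters. The cAMP response element, TGACGTCA, was in 0 of the 10 genes and in 1.65% of promoters. The sites of CHAC1 and ASNS are shown because these were the genes with the widest spread among positive samples; other annotated transcripts cover both sites, so only 30 bases are given.
CHAC1, chr15:40953251-40953280 in GRCh38.p14, plus strand, element on the other strand 209 to 202 bases before the start: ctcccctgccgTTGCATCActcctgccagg
ASNS, chr7:97872458-97872487, minus strand, element 68 to 61 bases before the start: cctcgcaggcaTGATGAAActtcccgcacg

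The spread among positive samples had a pattern shared by most of the 10 genes. In SW1990, positive replicate 1 was the lowest of its group for 9 of 10 genes, HSPA5 being the exception; over all genes it was the lowest for 42.3%. In CFPAC-1, positive replicate 1 was the lowest for 9 of 10 (all but DDIT3; all genes 26.4%) and positive replicate 3 the highest for 8 of 10 (all but DDIT3 and DNAJB9; all genes 38%). For genes above 1 RPKM the median ratio of the highest to the lowest sample was 1.21 in positive SW1990 and 1.33 in positive CFPAC-1 cells. The ratio was 2.32 for ASNS, 1.91 for SESN2, 1.64 for TRIB3 and 1.51 for ATF4 in the former, and 4.13, 2.08, 1.21 and 1.49 in the latter. It was below the median for HSPA5 (1.05) in SW1990, and for HSPA5 (1.27), DDIT3 (1.1) and TRIB3 in CFPAC-1. In negative cells of either line no member exceeded 1.44, and the medians for genes above 1 RPKM were 1.23 in SW1990 and 1.15 in CFPAC-1. Positive CFPAC-1 replicate 3 had the smallest library, 9969697 reads against 16973802 to 26159330 in the others, and the part of depth in its values was not tested.

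The same samples stood apart in ATF4 targets outside the 10 genes. Of 18 targets in amino acid metabolism and transport, 16 were lowest in positive SW1990 replicate 1, 16 were highest in replicate 3 of that group, and 15 were highest in positive CFPAC-1 replicate 3. Over all genes replicate 3 was the highest for 27.5% in positive SW1990 cells. The median log2 distance of these 18 genes from the negative mean of their line was -0.36, -0.05 and 0.05 in the positive SW1990 samples and 0.12, 0.15 and 0.95 in the positive CFPAC-1 samples. Of 12 aminoacyl-tRNA synthetases, enzymes that charge tRNA and many of which are ATF4 targets, 11 were highest in positive CFPAC-1 replicate 3, where their median was 0.88 against 0.29 and 0.36. The 18 sensors and regulators showed no such order, with medians of 0.07, 0.08 and 0.05 in the positive CFPAC-1 samples. Such orders were not confined to ATF4 targets or to positive cells. Of 20 ER chaperones and folding enzymes, 14 were highest in positive CFPAC-1 replicate 3 (all genes 38%), median 0.44 against 0.33 and 0.35. In negative CFPAC-1 cells replicate 1 was highest for 13 of the 18 targets and 11 of the 12 synthetases (all genes 43.1%). The medians there were 0.12 and 0.13. Replicate 3 of negative SW1990 cells was lowest for 10 of the 12 synthetases (all genes 29.2%).

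**Figure D3:**
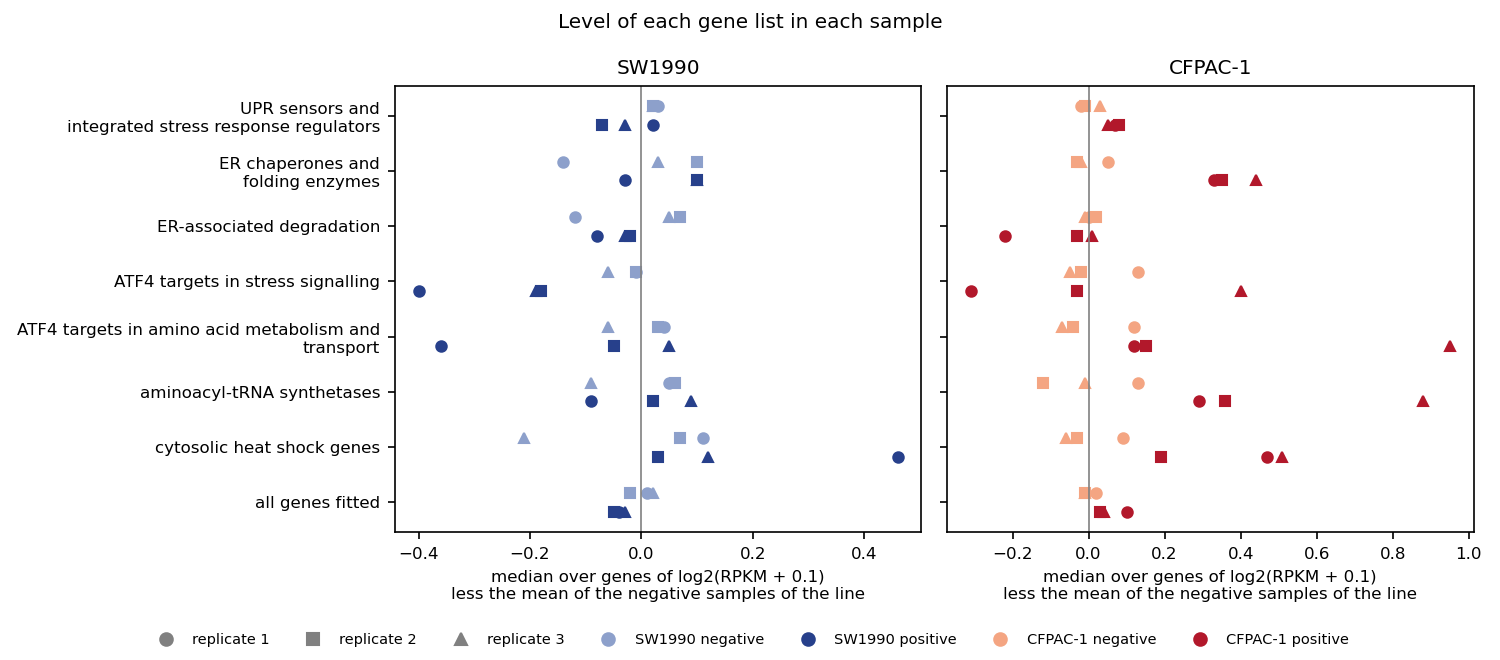
Median over the genes of each list of log2(RPKM + 0.1) less the mean of the negative samples of the line (horizontal axis), with 1 point per sample, its shape giving the replicate and its colour the group. Positive CFPAC-1 replicate 3 lies apart for ATF4 targets in amino acid metabolism (0.95) and tRNA synthetases (0.88), and positive SW1990 replicate 1 for ATF4 targets (-0.40 and -0.36) and heat shock genes (0.46), while all genes stay between -0.05 and 0.10.

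For each of the 10 genes, the other genes nearest in pattern were found over the 12 samples, as the smallest root mean square difference between log2 profiles that were each centred on their own mean. CHAC1 was nearest to GDF15 (0.527) and HAR1B (0.559), on a scale where CHAC1 itself had an SD of 1.56. GDF15 encodes a stress-induced secreted factor, and its RPKM ran from 48.9 to 162 in positive SW1990 and from 11.0 to 38.9 in positive CFPAC-1 cells. ASNS was nearest to FLJ13197 (0.331) and CEBPB (0.332), TRIB3 to NOTCH3 (0.267) and HSD17B8 (0.271), and ATF4 to EDEM1 (0.125) and SLC38A10 (0.128). HSPA5 was nearest to DBNL (0.088) and RABIF (0.09), XBP1 to SHISA5 (0.1) and FKBP8 (0.121), HERPUD1 to BTBD2 (0.095) and LOC151534 (0.136), and DNAJB9 to SEC24D (0.128), a coat protein of ER export vesicles, and ZNF555 (0.129). SESN2 lay nearest to NARFL (0.217), and DDIT3 to BRD3 (0.113) and SRGAP2 (0.121). None of these distances was tested.

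The lines themselves also differed in the 10 genes. In negative cells 5 of 10 were called higher in SW1990 (40.7% of all genes) and 1 lower (28.2%). In positive cells 3 were called higher (32.9%) and 1 lower (29.3%). The medians over the 10 genes were 0.47 in negative and 0.20 in positive cells, where those of all genes were 0.19 and 0.06. CHAC1 and TRIB3, both ATF4 targets, went opposite ways. CHAC1 was 4.34-fold higher in SW1990 among negative cells (log2 2.12, SE 0.71, limma adjusted p = 0.0186) and 6.3-fold higher among positive cells (log2 2.65, SE 0.71, limma adjusted p = 0.00617), and TRIB3 was lower in SW1990, at a log2 change of -1.55 in negative (SE 0.16, limma adjusted p = 3.08e-06) and -2.29 in positive cells (SE 0.16, limma adjusted p = 1.6e-07). The CHAC1 difference among negative cells missed the threshold without negative SW1990 replicate 3 (limma adjusted p = 0.0511). The fit used 1 spread per gene over all 4 groups, so the CHAC1 SE of 0.71 is not that of negative cells alone. The coefficient of variation of CHAC1 was 9.93% in negative SW1990 and 8.73% in negative CFPAC-1 cells. In positive cells it was 56% and 122%. The lowest negative SW1990 value, 23.7 RPKM, was above the highest negative CFPAC-1 value, 6.43 RPKM. DDIT3 and DNAJB9 were also higher in negative SW1990 cells, by 0.51 (SE 0.11, limma adjusted p = 0.00157) and 0.44 (SE 0.16, limma adjusted p = 0.0279); the DNAJB9 call was lost without negative replicate 2 or 3 of either line, at up to 0.1. ATF4 was higher in positive SW1990 cells by 0.49 (SE 0.17, limma adjusted p = 0.0228), and that call was lost without positive replicate 2 or 3 of SW1990 or 1 or 2 of CFPAC-1, at up to 0.102. In order of mean level, HSPA5 and ATF4 led in all 4 groups and XBP1 followed in 3, while in positive CFPAC-1 cells TRIB3 (149 ± 14.8, SD, n = 3) stood above XBP1 (108 ± 27.8, SD, n = 3), with samples that overlap. SESN2 was last in all 4, although in CFPAC-1 CHAC1 was close to it, at 5.85 ± 0.511 against 4.19 ± 0.461 in negative cells and 6.13 ± 7.46 against 5.61 ± 2.09 in positive cells (SD, n = 3).

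Lists of related genes give the setting of these changes. Counts of genes that rose or fell are counts of calls. The shares called over all genes were 11.3% higher and 16.9% lower in SW1990. In CFPAC-1 they were 22.3% higher and 14.2% lower. None of the lists was tested as a whole. Among 18 sensors and regulators, 3 rose and 2 fell in each line, close to those shares, with medians of -0.06 in SW1990 and 0.06 in CFPAC-1, next to -0.04 and 0.05 for all genes. In SW1990 the counts were 1 and 1 without negative replicate 2 or 3 or positive replicate 3, and 1 and 3 with the line fitted alone. ATF6 fell in both, with a log2 change of -0.39 in SW1990 (limma adjusted p = 0.0305) and -0.43 in CFPAC-1 (limma adjusted p = 0.0146). In SW1990 ERN2, the IRE1 form of mucus-secreting epithelium, rose from 0.956 ± 0.0575 to 3.29 ± 0.705 RPKM (SD, n = 3; log2 1.66), EIF2B5 rose by 0.39 and MBTPS1, the protease that cuts ATF6, changed by -0.34. In CFPAC-1 EIF2B1 and EIF2S1, subunits of eIF2B and eIF2, rose by 0.53 and 0.52 and EIF2AK3 changed by -0.46.

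Of 20 ER chaperones and folding enzymes, 12 rose, 1 fell and 7 did not pass the test in CFPAC-1 (median 0.36), beside 22.3% and 14.2% of all genes. In SW1990 1 rose and 1 fell (median 0.09), beside 11.3% and 16.9%. SDF2L1, a partner of BiP, went from 13.6 to 19.5 RPKM in negative to 36.1 to 54.1 in positive CFPAC-1 cells (log2 1.45, SE 0.17, limma adjusted p = 0.000101), and CRELD2, a secreted ER stress protein, rose by 0.93 (limma adjusted p = 0.0293). Their SW1990 changes were 0.39 and 0.34 (limma adjusted p = 0.107 and 0.454), and the difference between lines was -1.05 for SDF2L1 (limma adjusted p = 0.00651) and -0.60 for CRELD2 (limma adjusted p = 0.328). ERO1LB, an oxidase that recharges disulphide formation, fell in both lines (log2 change -1.10 in SW1990 and -0.90 in CFPAC-1), and its relative ERO1L rose by 0.78 in SW1990. In the list as a whole, 1 of 20 differences between lines was called higher and 7 were called lower in SW1990. The median was -0.34, beside -0.15 for all genes. With centred samples 9 rose and 2 fell in CFPAC-1, and the differences came to 1 higher and 2 lower (median -0.19). The 7 lower differences became 4 without negative replicate 2 or 3 of CFPAC-1 or without negative replicate 2 or positive replicate 2 or 3 of SW1990.

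Of 18 genes of ER-associated degradation, 5 rose and 4 fell in CFPAC-1 (median -0.11), counts close to the shares of all genes. VCP, the ATPase that pulls proteins from the ER membrane, rose from 28.4 ± 1.49 to 58.8 ± 1.43 RPKM (SD, n = 3). Its log2 change was 1.05 (limma adjusted p = 7.69e-06). DERL3 rose by 1.30 at a low level, from a mean of 0.503 to 1.36 RPKM. The DERL3 call was lost with a pseudocount of 0.01 (limma adjusted p = 0.0967). EDEM3 and ERLEC1, which handle glycans of misfolded proteins in the lumen, changed by -0.64 and -0.54. With centred samples the counts became 5 rising and 8 falling, and without positive replicate 3 it was 5 and 7. SW1990 had 2 genes called higher, SYVN1 by 0.27 and DERL1 by 0.26, and 0 called lower (median -0.03). At an unadjusted limma p under 0.05, 2 were lower, and with voom 0 were called lower. Without positive replicate 2 or 3 the SW1990 counts were 0 and 0.

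**Figure D4:**
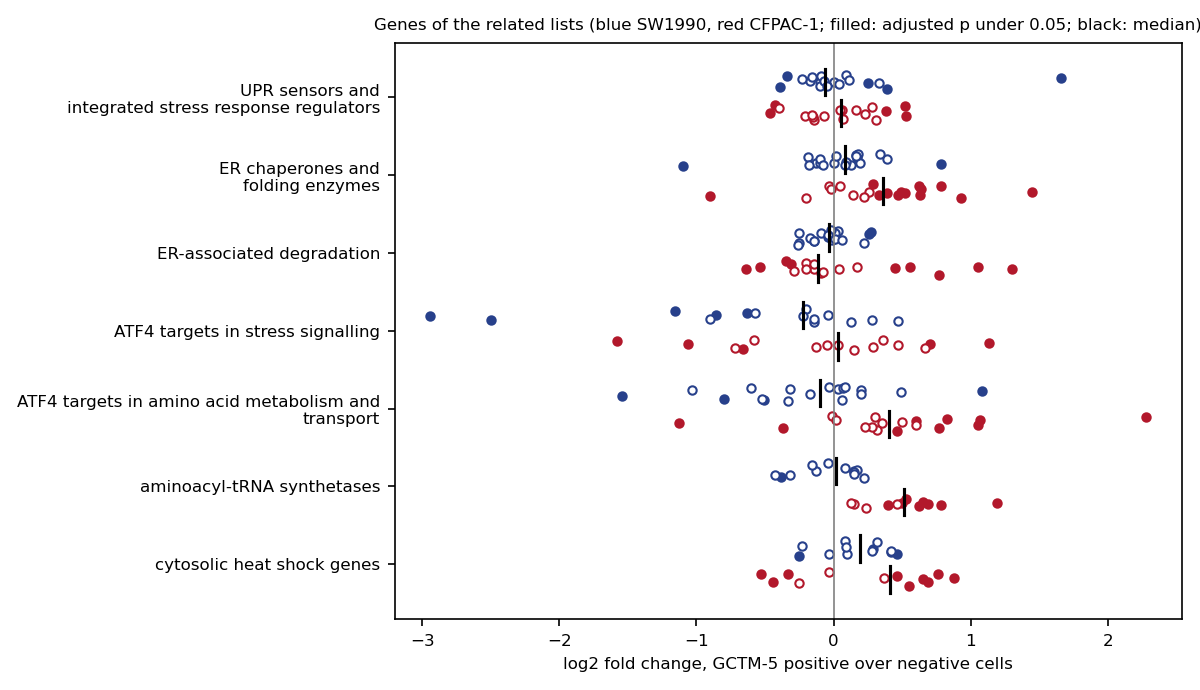
Log2 fold change of GCTM-5 positive over negative cells (horizontal axis) for each fitted gene of the 7 lists in SW1990 (blue) and CFPAC-1 (red), filled where the adjusted p is under 0.05, with a black bar at the median; height within a band carries no value. The CFPAC-1 medians of chaperones (0.36), amino acid genes (0.41) and tRNA synthetases (0.51) lie to the right of those of SW1990 (0.09, -0.10 and 0.02). So do those of heat shock genes (0.41 against 0.19), stress signalling targets (0.03 against -0.22) and sensors (0.06 against -0.06). The median of ER-associated degradation lies to the left (-0.11 against -0.03).

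The targets of ATF4 are given as 2 lists. Of 15 fitted targets in stress signalling, 0 rose and 5 fell in SW1990 (median -0.22, with 1 higher at an unadjusted limma p under 0.05 or by voom), and 2 rose and 3 fell in CFPAC-1 (median 0.03). The CFPAC-1 counts are close to the shares of all genes, and became 2 and 1 without negative replicate 3 or positive replicate 3 (median -0.17 without the latter), 3 and 1 without positive replicate 1 and 4 and 3 with voom. KLHL24 fell in both lines, with log2 changes of -2.50 in SW1990 (limma adjusted p = 0.00158) and -1.58 in CFPAC-1 (limma adjusted p = 0.0199). NUPR1, a stress-induced chromatin protein, went from 2.48 ± 0.564 to 0.249 ± 0.137 RPKM in SW1990 (SD, n = 3; log2 -2.94). ATF5, a sister factor of ATF4, rose in CFPAC-1 by 1.13 (limma adjusted p = 0.000375) and fell in SW1990 (log2 change -0.63, limma adjusted p = 0.0127, or 0.0539 without positive replicate 2), a difference of -1.75 (SE 0.23, limma adjusted p = 0.000229). CEBPG rose by 0.70 in CFPAC-1 and ATF3 changed by -1.06.

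Of the 18 targets in amino acid metabolism and transport, 7 rose and 2 fell in CFPAC-1 (median 0.41), where 22.3% and 14.2% of all genes did, and 1 rose and 3 fell in SW1990 (median -0.10), near the shares of 11.3% and 16.9%. Without positive CFPAC-1 replicate 3 the counts were 7 and 1 and the median 0.08. PSAT1, of serine synthesis, rose in CFPAC-1 from 5.61 ± 1.89 to 28.0 ± 10.5 RPKM (SD, n = 3; log2 2.28, limma adjusted p = 0.0002), and the leucine carrier SLC7A5 by 1.07. The cystine carrier SLC7A11 and the glutamine carrier SLC38A2 fell in both lines, with log2 changes of -1.54 in SW1990 and -1.13 in CFPAC-1 for SLC7A11 and of -0.80 and -0.37 for SLC38A2. CTH, of cysteine synthesis, rose by 1.08 in SW1990. Among the 12 aminoacyl-tRNA synthetases, 8 rose and 0 fell in CFPAC-1 (median 0.51, also 0 lower at an unadjusted limma p under 0.05 or by voom), led by IARS (1.19, limma adjusted p = 2.61e-05) and GARS (0.78, limma adjusted p = 0.0328), and 0 rose and 1, LARS (-0.38), fell in SW1990 (median 0.02, with 1 higher at an unadjusted p under 0.05 and 0 by voom). The number rising in CFPAC-1 depended on the setting: it was 3 with the line fitted alone or without negative replicate 3, 4 with centred samples or without negative replicate 2, 5 without the filter on low values, and 6 with a replicate block or without positive replicate 3, where the median was 0.32.

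Cytosolic heat shock genes, which answer protein damage outside the ER, served for contrast, listed with the mitochondrial chaperonins HSPD1 and HSPE1. Of 12, 6 rose and 3 fell in CFPAC-1 (median 0.41), and 3 rose and 1 fell in SW1990 (median 0.19), beside 22.3% and 14.2% of all genes in CFPAC-1 and 11.3% and 16.9% in SW1990. HSPD1 rose in both (0.76 and 0.42), HSP90AA1 rose by 0.88 in CFPAC-1 and DNAJB1 by 0.46 in SW1990, while HSPA1A (-0.53) and HSPB1 (-0.44) fell in CFPAC-1 and BAG3 (-0.25) in SW1990. HSPA1A shares nearly all its sequence with HSPA1B, and the split of reads between them is uncertain. In positive SW1990 cells 10 of the 12 were highest in replicate 1 (all genes 38.2%), the sample lowest for 9 of the 10 stress genes above. Without it 1 rose and 1 fell, as without negative replicate 3. Negative cells had such orders too. There 9 of the 12 were highest in CFPAC-1 replicate 1 (all genes 43.1%) and 11 were lowest in SW1990 replicate 3 (all genes 29.2%).

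Of the genes named here from the lists by a fixed rule, 11 of 17 in SW1990 and 19 of 25 in CFPAC-1 kept their call without each sample in turn. Calls were lost for ATF6, EIF2B5, SYVN1, DERL1, HSPD1 and BAG3 in SW1990 and for ATF6, CRELD2, KLHL24, ATF3, SLC38A2 and GARS in CFPAC-1.

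In SW1990 epithelial and mesenchymal markers moved with the sort. In CFPAC-1 some mesenchymal markers did, while the counts of epithelial markers were close to the shares of all genes. These shares were 11.3% higher and 16.9% lower in SW1990 and 22.3% and 14.2% in CFPAC-1. In SW1990 all 10 epithelial markers were higher in positive cells (median 3.02, summed RPKM 4757 to 5087 against 1475 to 1701) and all 7 fitted mesenchymal markers lower (median -2.37, summed 202.8 to 374.2 against 1295 to 1456). In CFPAC-1, 2 epithelial markers were called higher and 2 lower (median 0.06, summed 7405 to 8948 against 6885 to 7942). There 4 of 7 mesenchymal markers were called lower (median -0.73, summed 421.3 to 590.7 against 552.4 to 753.2). Of the leukocyte markers, PTPRC and CD3E had group means of at most 0.0235 RPKM, while CD14, CD68 and LYZ, which epithelial lines can express, were measured. CD68 ran from 33.7 to 46.7 RPKM in negative and from 15.1 to 32.6 in positive SW1990 cells, and from 110 to 127 and from 109 to 162 in CFPAC-1. CD14 was lower in positive cells of both lines, with a mean of 1.47 RPKM in negative and 0.287 in positive SW1990 cells (log2 change -1.97, limma adjusted p = 0.000137) and of 9.23 and 3.19 in CFPAC-1 (log2 change -1.54, limma adjusted p = 0.000977), and LYZ did not pass in either (-0.09 and -0.14). Fewer cells of a kind and less RNA per cell cannot be told apart in such bulk samples. The part of these shifts in the stress genes was not tested.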

How the data were processed

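RNA-seq of 12 sorted samples was used. The authors aligned reads to hg19/GRCh37 with QuasR and deposited RPKM, normalised for library size and gene length; the annotation, strand use, treatment of multiply mapped reads and version are not given in the sources used here. Library kits differ between the labels (SureSelect, strand-specific) and the paper (TruSeq). RPKM steps gave library totals of 9969697 to 26159330 reads, and whole reads (within 0.01) for 19654 of 19654 genes above 0. The 16236 genes averaging 0.1 RPKM or more were fitted as log2(RPKM + 0.1), which understates changes of low genes, with limma 3.58.1 in R 4.3.3 (4 group means, trended eBayes, 2-sided, Benjamini-Hochberg). TCC, named by the paper, needs counts and was not used. The fit was tested on simulated data. Alternatives were pseudocounts 1 and 0.01, no filter or a mean of 1, centring, a replicate block, each line alone, voom on recovered reads, and each sample left out.

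The members and lists were chosen with earlier results of these data known. Named were all members, for each list and line the 2 highest and 2 lowest called changes, and the 2 genes nearest each member. A nearest gene of SESN2 and a leukocyte marker are not reported here. Groups came from the labels, and the main fit did not use replicate numbers to pair samples. Positions are from GENCODE 44 on GRCh37, promoters from RefSeq on GRCh38.p14. Other steps ran in Python 3.11.15 with numba 0.67.0, numpy 2.4.6, matplotlib 3.10.9 and pandas 2.3.3.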

Additional observations from a re-analysis of the deposited data

Results flagged for a closer look

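The change from GCTM-5 negative to positive cells differed between the lines for 3 of the 10 genes. This was by the test of the difference itself (limma, change in SW1990 minus change in CFPAC-1). All 3 were lower, where 17.8% of all genes were lower and 9.16% higher, so the count did not set the 10 genes apart. HSPA5 differed by -0.67 on the log2 scale (adjusted p = 0.00494), and all 3 positive CFPAC-1 samples were above the negative ones. DDIT3 differed by -0.59 (adjusted p = 0.0173), although neither line's own change passed the test. TRIB3 differed by -0.75 (adjusted p = 0.028). With each sample centred on its own median, HSPA5 alone kept its call.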

How the results depend on the processing

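Without 1 sample, the number of the 10 genes called ran from 0 to 2 in SW1990 (main value 1), from 2 to 6 in CFPAC-1 (4), from 2 to 3 for the difference between lines (3), from 4 to 6 in negative cells between lines (6) and from 3 to 6 in positive cells (4). SW1990 called 0 genes without the filter on low values or with centred samples and 2 with voom on recovered reads; CFPAC-1 called 2 without the filter, and the difference called 1 with centred samples. With each line fitted alone SW1990 called HERPUD1 (adjusted p = 0.0403) in place of DNAJB9 (0.0651), and CFPAC-1 gained DDIT3 (0.0267) and lost HERPUD1 (0.0934) and DNAJB9 (0.073), for 3 higher and 0 lower. More genes are tested without the filter, and for the others the cause was not tested. The HSPA5 and TRIB3 calls in CFPAC-1 and the HSPA5 difference held under each alternative tried, as did HSPA5, DDIT3, HERPUD1 and TRIB3 between lines in negative cells and HERPUD1, CHAC1 and TRIB3 in positive cells. Without the filter the TRIB3 difference (adjusted p = 0.0687), CHAC1 (0.0624) and DNAJB9 (0.0634) between lines in negative cells and ATF4 in positive cells (0.059) were lost. Signs turned only for changes that had not passed. With centred samples these were HSPA5 (0.02) and SESN2 (0.04) in SW1990, the DNAJB9 difference (0.10), XBP1 in negative cells (-0.14) and SESN2 in positive cells (-0.0010). With voom they were ATF4 in SW1990 (-0.0003) and ASNS in positive cells (0.06). Without 1 sample the SW1990 changes ran from -0.12 to 0.18 for ATF4, -0.48 to 0.49 for CHAC1, -0.57 to 0.03 for ASNS and -0.23 to 0.23 for SESN2, and the CFPAC-1 changes from -1.68 to 0.03 for CHAC1 and -0.34 to 0.67 for ASNS. The differences ran from -0.0033 to 0.37 for XBP1, -0.02 to 0.33 for HERPUD1, -0.18 to 1.54 for CHAC1, -0.99 to 0.03 for ASNS and -0.2 to 0.11 for DNAJB9, and positive cells between lines from -0.19 to 0.03 for DDIT3, -0.45 to 0.56 for ASNS and -0.21 to 0.31 for SESN2.

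Deviations of samples with the same replicate number correlated at 0.18, 0.02 and 0.12 in SW1990 and -0.02, 0 and -0.06 in CFPAC-1. Those with unlike numbers ran from -0.25 to 0.16 in SW1990 and from -0.03 to 0.04 in CFPAC-1. With 3 samples per group these values cannot tell whether samples of the same number were paired. With the replicate block, 1 gene was called in SW1990, 5 in CFPAC-1 (XBP1 added, adjusted p = 0.0419) and 2 for the difference (DDIT3 at 0.0505). CHAC1 had the fewest reads of the 10 genes, 52 in positive CFPAC-1 replicate 1, although that sample had the largest library (26159330 reads).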
